A study of Homo sapiens with 4 samples.

Results

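The zinc finger genes at the telomeric end of the long arm of human chromosome 19, from ZNF444 to ZNF446, were examined at their promoters. The 48 genes were taken by symbol from a table with 1 row of ATAC-seq fragment counts per gene promoter, in which all 48 were present among 28775 rows. ATAC-seq uses the Tn5 transposase to cut and tag exposed DNA, so that the count at a promoter measures how accessible its chromatin is. In bulk cells a larger share of cells with an open promoter and a more open promoter in each cell cannot be told apart. The cells were HEK293T, an established human embryonic kidney line. Wild-type (WT) cells gave 2 libraries, and cells carrying a Cas9-made knock-out of MORC2 (KO) gave 2. The study's methods describe the KO cells as bulk pools rather than clones, 1 pool for each of 2 guide RNAs, so that guide and KO replicate cannot be told apart. No other treatment is stated for these libraries. The study's methods describe electroporation of the KO cells and do not say whether the WT cells were electroporated.

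Most genes of this cluster encode KRAB zinc finger proteins, repressors that bind DNA through an array of C2H2 zinc fingers. In the classical model their KRAB domain recruits TRIM28, which brings the histone methyltransferase SETDB1 and heterochromatin protein 1, and the bound region gains H3K9me3, a mark of silent chromatin. Many of these proteins bind retroelements. The genes lie in tandem arrays that arose by duplication, and their own bodies carry H3K9me3 in many cell types while their promoters stay open. MORC2, a GHKL-type ATPase, works with the HUSH silencing complex, which reads H3K9me3. The comparison asks whether these promoters change in accessibility when MORC2 is lost.

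The promoters of the cluster share sequence with one another. RefSeq promoters on GRCh38.p14, which run from 250 bases before to 50 after the annotated start, were matched for 44 of the 48 genes. Both strands were searched for each motif. CCGGAAG, the core that ETS family factors recognise, was present in 27 of the 44 (61.4%), against 10.7% of all 27305 promoters and 36.4% of 464 promoters of other ZNF genes. CCAAT was present in 28 (63.6%), against 35.7% of all promoters and 45% of those of other ZNF genes. GGGCGG, the GC box, was present in 28 (63.6%), against 44.6% of all and 62.9% of those of other ZNF genes, a share near that of the cluster. TATAAA was found in 1, the YY1 core in 1 and the NRF1 motif in 0. Among strings of 11 bases held by at least 11 of the 44 promoters, ACTACATTACC was the rarest elsewhere; the length and the limit were set after the promoters had been read, so its count is a description. It was present in 11 of the 44 (25%). It occurred in 18 of all 27305 promoters (0.0659%), and ZNF587B, a neighbour in the same stretch that is not among the 48 genes, was another of the 18. The 11 promoters were those of ZNF17, ZNF749, ZNF772, ZNF550, ZNF416, ZNF530, ZNF154, ZNF586, ZNF587, ZNF814 and ZNF418. In each the string read in the direction of transcription, beginning 146 to 68 bases before the start, and ZNF749 held it in 2 places.

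The promoters of 4 genes that were more accessible in KO cells and hold ACTACATTACC are shown first. ZNF154 follows, which holds it but was barely accessible, and then ZNF304, which had the highest fold change. ZNF304 holds neither capitalised motif as an exact match, but it reads actacgttacc, a near match to ACTACATTACC. Sequences run 5′ to 3′ in the direction of transcription, and capitals mark ACTACATTACC and CCGGAAG (or its reverse complement). Positions are on GRCh38.p14, whereas the fragments were counted on CHM13.
ZNF416, chr19:57578862-57579161, - strand: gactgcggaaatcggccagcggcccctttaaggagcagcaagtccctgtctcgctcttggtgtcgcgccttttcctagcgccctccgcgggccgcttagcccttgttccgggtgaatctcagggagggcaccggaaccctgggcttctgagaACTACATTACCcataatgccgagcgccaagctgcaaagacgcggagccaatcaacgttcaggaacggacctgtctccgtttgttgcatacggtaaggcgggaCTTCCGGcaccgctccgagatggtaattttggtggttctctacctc
ZNF587, chr19:57849609-57849908, + strand: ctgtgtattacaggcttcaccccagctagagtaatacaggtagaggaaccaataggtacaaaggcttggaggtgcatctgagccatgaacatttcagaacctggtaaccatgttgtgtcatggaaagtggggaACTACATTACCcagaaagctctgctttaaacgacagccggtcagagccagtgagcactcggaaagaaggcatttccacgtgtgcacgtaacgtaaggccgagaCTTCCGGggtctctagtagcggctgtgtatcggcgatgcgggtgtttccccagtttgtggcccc
ZNF586, chr19:57769426-57769725, + strand: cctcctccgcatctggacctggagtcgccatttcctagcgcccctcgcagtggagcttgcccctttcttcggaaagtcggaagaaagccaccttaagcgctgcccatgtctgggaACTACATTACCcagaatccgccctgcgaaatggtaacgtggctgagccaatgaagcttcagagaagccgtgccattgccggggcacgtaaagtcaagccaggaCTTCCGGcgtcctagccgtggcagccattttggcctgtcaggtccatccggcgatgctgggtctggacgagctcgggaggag
ZNF772, chr19:57477517-57477816, - strand: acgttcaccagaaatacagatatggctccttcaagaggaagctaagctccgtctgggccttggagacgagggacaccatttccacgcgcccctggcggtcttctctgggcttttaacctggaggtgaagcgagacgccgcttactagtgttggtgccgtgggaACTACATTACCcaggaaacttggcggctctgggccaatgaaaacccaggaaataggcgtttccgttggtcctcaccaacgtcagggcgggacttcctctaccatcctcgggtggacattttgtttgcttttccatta
ZNF154, chr19:57709155-57709454, - strand: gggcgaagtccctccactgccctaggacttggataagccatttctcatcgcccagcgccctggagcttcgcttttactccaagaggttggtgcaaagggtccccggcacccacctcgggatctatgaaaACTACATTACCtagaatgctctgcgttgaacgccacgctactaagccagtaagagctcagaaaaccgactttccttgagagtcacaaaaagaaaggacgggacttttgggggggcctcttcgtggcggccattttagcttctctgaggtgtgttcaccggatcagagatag
ZNF304, chr19:57351021-57351320, + strand: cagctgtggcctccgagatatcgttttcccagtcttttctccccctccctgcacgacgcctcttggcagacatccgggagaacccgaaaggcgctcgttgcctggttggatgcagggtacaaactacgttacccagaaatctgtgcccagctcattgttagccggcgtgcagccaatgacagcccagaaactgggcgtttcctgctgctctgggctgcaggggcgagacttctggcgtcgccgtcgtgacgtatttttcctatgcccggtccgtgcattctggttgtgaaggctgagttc
In ZNF416, ZNF587 and ZNF586 the capitalised strings lie in the same order, with ACTACATTACC upstream and the ETS core closer to the start. Despite such resemblance, only 1 of 946 pairs of the 44 promoters, ZNF419 with ZNF773, shared any run of 31 bases, and it shared 7.

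The libraries held 9435801 to 15152636 promoter fragments, of which 20.6% to 35.1% were mitochondrial, and KO replicate 2 was the deepest. Both replicates of a group were kept as separate samples, since their counts differed by more than sampling noise (chi-square per degree of freedom 1.2 for KO and 1.32 for WT). Nothing in the labels says whether the WT libraries came from separate cultures, although the study's methods call the replicates independent. At the MORC2 promoter KO replicates gave 403 and 639 fragments and WT replicates 247 and 267, which measures accessibility and does not check the edit. Of the genes known to be active in HEK293 cells, VIM and NEFL had open promoters (74.8 and 33.8 CPM in WT), whereas PAX2, at 7.16 CPM, lay close to MYH6 (6.36 CPM), a marker of cardiac muscle. CPM here is the usual depth-normalised fragment count after TMM scaling, the edgeR scaling that balances libraries on the bulk of promoters. The study states 1 window width for promoters, 2 kb around the start, in its own promoter summary. If the table used it too, which is not stated, CPM values of different genes can be set side by side.

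The level of accessibility, taken over all 4 libraries, split the 48 promoters into 2 classes. With promoters ordered by their mean over all 4 libraries, the widest gap, 1.12 on the log2 scale, lay between ZNF132 at 5.1 CPM and ZNF471 at 11.1 CPM, and the next widest was 0.44. Below it were 10 promoters, those of ZNF667, ZNF835, ZNF154, ZNF671, ZNF814, ZNF418, ZNF135, ZNF329, ZNF544 and ZNF132. Their WT means ran from 2.04 to 5.52 CPM, which placed them between percentiles 7.11 and 32.1 of the 27647 tested promoters. The other 38 ran from 10.7 to 58.5 CPM in WT, with a median of 17.4. This division was made on the values and is a description.

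The lowest promoter was that of ZNF835, with 16 and 30 fragments in KO and 19 and 19 in WT. ZNF154 held 34 and 50 fragments in KO and 26 and 22 in WT, and ZNF671 held 25 and 38 in KO and 25 and 25 in WT. The means of ZNF154 (2.57 ± 0.186 CPM) and ZNF671 (2.68 ± 0.122 CPM, SD, n = 2 each) lay within their spread of each other. ZNF154, ZNF671, ZNF582, ZNF471, ZNF667 and ZNF132 are known for promoter methylation in tumours. ZNF154, ZNF671, ZNF667 and ZNF132 were in the low class, while ZNF582 (17.8 ± 0.507 CPM) and ZNF471 (10.7 ± 1.25 CPM) were not. The highest promoters in WT were those of ZNF837 (58.5 ± 0.312 CPM), ZNF497 (52.3 ± 1.11 CPM) and ZNF446 (49.6 ± 0.895 CPM). ZNF837 exceeded ZNF497 by more than their spread, and all 3 lie toward the telomeric end.

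**Figure D1:**
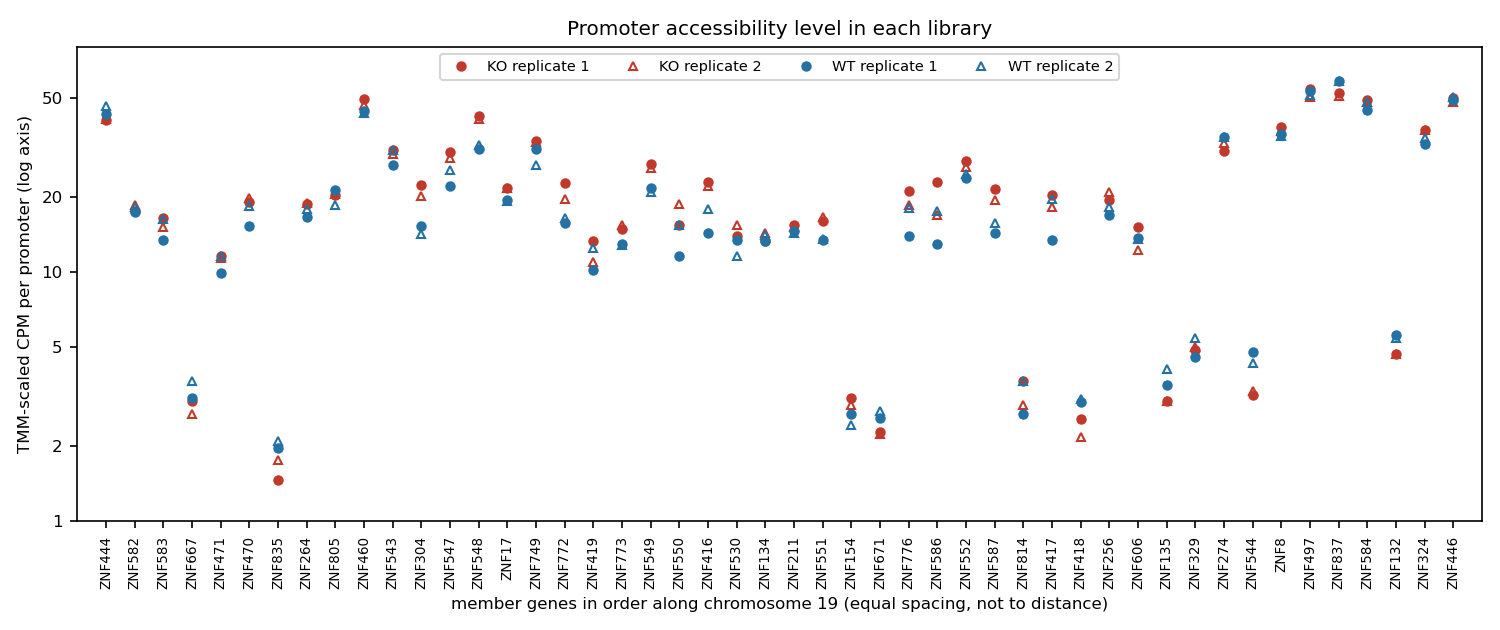
TMM-scaled CPM (log axis) at each of the 48 promoters in gene order, with KO libraries in red, WT libraries in blue, circles for replicate 1 and triangles for replicate 2. The 10 low promoters sit below 6 CPM in all 4 libraries and are scattered among high ones.

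The low and high classes overlapped in base composition. Among promoters with a sequence, the median ratio of observed to expected CpG was 0.794 in the 10 low ones (range 0.503 to 1.21) and 0.833 in 34 high ones (0.461 to 1.16), and the median GC content was 57.4% and 60.9%. Over all 44 the ratio was 0.825 and over all promoters 0.58. Across the 44 promoters, which share the same libraries, log2 WT CPM had a Spearman rho of 0.34 with GC content (Pearson r 0.24) and of 0.15 with the CpG ratio (r 0.13). The ETS core was present in 4 of the 10 low and 23 of the 34 high promoters, and ACTACATTACC in 3 and 8.

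Loss of MORC2 was accompanied by higher accessibility at 8 of the 48 promoters and lower accessibility at 0. All 48 passed the filter on low counts. The 8 called higher, at an adjusted p under 0.05 over all tested promoters in edgeR's quasi-likelihood test, make 16.7% of the genes, where 3.45% of all tested promoters were called higher and 0.995% lower. With no adjustment, 12 had p under 0.05 and were higher, and 2 were lower (11.5% and 8.87% of all tested promoters). The median log2 fold change of the 48 was 0.091, against −0.017 over all tested promoters, and 34 of the 48 were above 0 (70.8%, against 46.7%). At 22 promoters the lower KO library exceeded the higher WT library, and at 10 the reverse held, where 25.2% and 25.4% of all promoters did so. DESeq2's Wald test called 0 of the 48 in either direction, and without adjustment 7 passed as higher and 0 as lower (4.23% and 0.926% of all promoters, against 0.0253% and 0% called after adjustment). Total count scaling also called 0, where 0.0687% of all were called, and without adjustment 17 passed as higher and 0 as lower (8.83% and 1.83% of all).

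The count of calls and the background moved with the edgeR setting. The calls numbered 8 with DESeq2 size factors (3.66% of all promoters called higher), 8 with no filter (3.37%), 7 with mitochondrial rows left out (3.47%), 5 with thinned counts (1.98%) and 5 with the replicate number as a block (2%). There were 4 with offsets that remove the trend of fold change with abundance (0.778%, and 1 lower against 0.673%) and 4 of the 40 tested at a mean count of at least 50 (2.62%, and 1 lower against 1.35%). At an adjusted p under 0.01 there were 3 (1.14%).

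The highest fold change was that of ZNF304, whose protein is known to recruit TRIM28 and SETDB1 in cancer cells. KO replicates 1 and 2 gave 243 and 342 fragments at its promoter, and WT replicates 1 and 2 gave 147 and 128. Scaled, this was 22.3 and 20.1 CPM in KO against 15.3 and 14.2 in WT, so that the groups were well apart. Its log2 fold change was 0.51 (SE 0.11, edgeR adjusted p 0.00159).

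ZNF416 held 250 and 379 fragments in KO and 139 and 162 in WT. Its log2 fold change was 0.48 (SE 0.11, edgeR adjusted p 0.00212), from 16.2 ± 2.48 to 22.6 ± 0.499 CPM (SD, n = 2 each). The WT libraries were less alike than the KO libraries, at 14.4 and 17.9 CPM. Without WT replicate 1 the log2 fold change of ZNF416 was 0.33 (adjusted p 0.111).

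ZNF587 encodes a primate protein that binds HERV-K retroviral sequences. Its promoter held 234 and 333 fragments in KO and 138 and 143 in WT, which gave 0.43 (log2 fold change, SE 0.11, edgeR adjusted p 0.011). The KO libraries, at 21.5 and 19.5 CPM, were clear of the WT libraries, at 14.3 and 15.8 CPM. Its close relative ZNF417, which binds the same retroviral family, held 222 and 310 fragments in KO and 129 and 177 in WT. The WT libraries of ZNF417 were far apart (16.5 ± 4.39 CPM, SD, n = 2), the higher of them, at 19.6 CPM, within the KO range of 18.2 to 20.4, and its log2 fold change of 0.22 was not called (edgeR adjusted p 0.26). Without WT replicate 2 it was 0.51 and called (adjusted p 0.0463), and without WT replicate 1 it was −0.039. No promoter sequence was matched for ZNF417, so how far reads of the relatives can be told apart there was not tested.

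ZNF548 had the smallest p of the cluster. It held 461 and 701 fragments in KO and 299 and 292 in WT, and its log2 fold change was 0.39 (SE 0.082, edgeR adjusted p 0.000556). The replicates were close, with means of 41.7 ± 0.832 CPM (KO) and 31.7 ± 0.912 CPM (WT; SD over 2 libraries). ZNF547, just before it in gene order, held 331 and 489 fragments in KO and 213 and 232 in WT, which gave 0.30 (log2 fold change, SE 0.094, adjusted p 0.0402). The row of TRAPPC2B, which encodes a paralogue of a vesicle tethering subunit, held the same fragments save 1 and the fitted change was also 0.30 (log2), which leaves the change assigned to neither gene.

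ZNF772 held 248 and 336 fragments in KO and 151 and 148 in WT, or 0.39 on the log2 scale (SE 0.11, edgeR adjusted p 0.0221). ZNF549 held 296 and 447 in KO and 209 and 189 in WT, or 0.32 on the log2 scale (SE 0.099, adjusted p 0.0371). In both genes the KO libraries lay above the WT libraries. Neither was called when any 1 of the 4 libraries was left out. ZNF586 was called with overlapping groups: KO stood at 23 and 16.9 CPM, WT at 13 and 17.5, which gave 0.36 (log2 fold change, SE 0.12, adjusted p 0.0462). The log2 fold change dropped to 0.15 when WT replicate 1 was left out and to 0.18 when KO replicate 1 was, neither of them called (adjusted p 0.559 and 0.532).

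**Figure D2:**
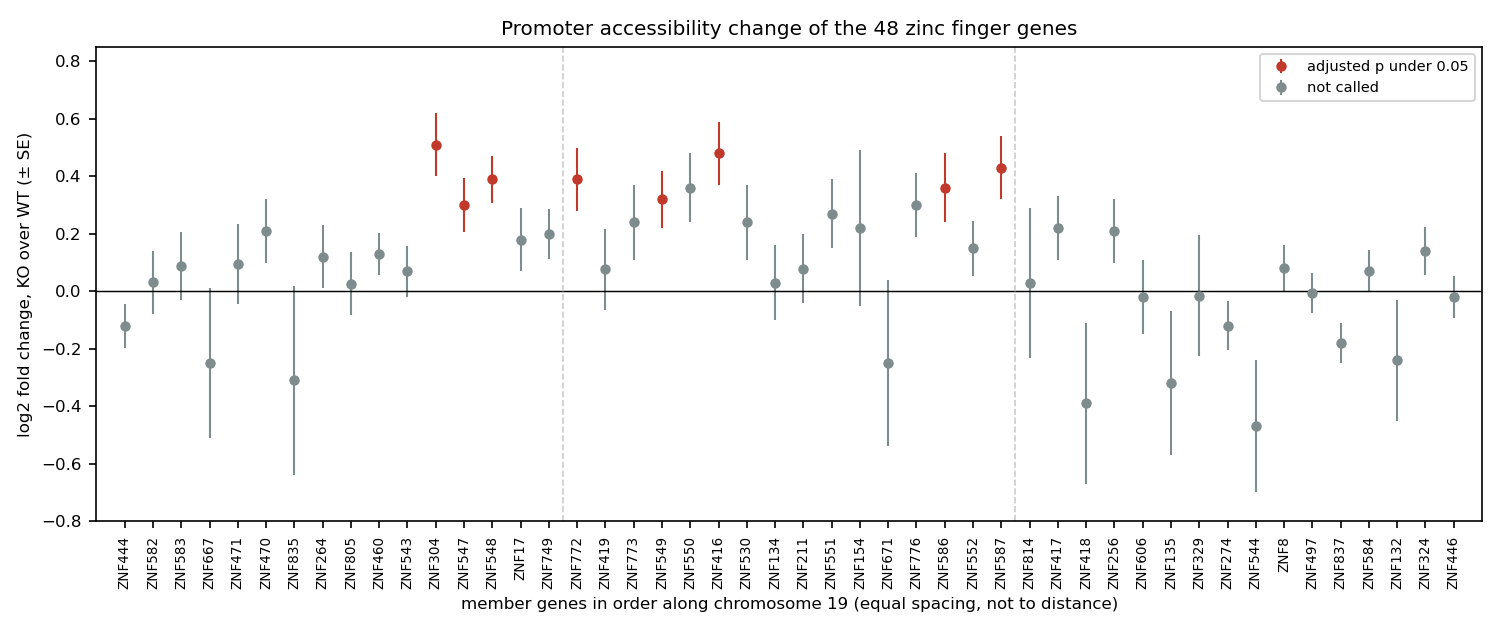
Log2 fold change of KO over WT (y axis, bars are SE, fitted on 2 libraries per group) for the 48 promoters in gene order, with promoters called at an adjusted p under 0.05 in red and dashed lines between the runs of 16 genes. The 8 called promoters lie between ZNF304 and ZNF587, and the last 16 hold none.

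With the genes split in order into 3 runs of 16, there were 3 called in the first run (ZNF444 to ZNF749), 5 in the second (ZNF772 to ZNF587) and 0 in the third (ZNF814 to ZNF446). These are 18.8%, 31.2% and 0% of each run, beside 3.45% of all tested promoters, and the 0 of the third run is near that share. The median log2 fold changes were 0.11, 0.25 and −0.017, and 13, 15 and 6 of the 16 were above 0. In the third run, without adjustment, edgeR passed 0 as higher and 2 as lower, and DESeq2 called 0. The outermost called genes, ZNF304 and ZNF587, enclose 21 of the 48, a stretch defined by the calls themselves and therefore given as a description only. Within it 20 of 21 log2 fold changes were above 0, with a median of 0.27, and outside it 14 of 27, with a median of 0.027. Over the 15 fits the median inside lay between 0.24 and 0.40 and the median outside between −0.038 and 0.16. These fits reuse the libraries whose calls defined the stretch, so the range inside is a description too. Whether the runs differ from one another was not tested.

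Uncalled genes inside the stretch mostly leaned the same way. ZNF550 stood at 15.5 and 18.7 CPM in KO and 11.6 and 15.5 in WT, a log2 fold change of 0.36 that just missed the threshold (edgeR adjusted p 0.0576). ZNF776 had 21.2 and 18.6 CPM in KO against 14 and 18.1 in WT. ZNF551 had 16 and 16.6 CPM in KO against 13.5 and 13.6 in WT. In all 3 the lower KO library was near or above the higher WT library, and their log2 fold changes were 0.36, 0.30 and 0.27. ZNF749, ZNF530, ZNF773, ZNF17 and ZNF552 had log2 fold changes of 0.20, 0.24, 0.24, 0.18 and 0.15 with the KO libraries above the WT libraries. Values close to 0 were measured at ZNF419, ZNF134 and ZNF211 (0.076, 0.03 and 0.078, each with an SE of 0.12 to 0.14). ZNF671, with the lowest fold change in the stretch, stood at −0.25 (log2 fold change, SE 0.29) on 25 to 38 fragments.

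Of the 11 promoters with ACTACATTACC, 4 were called higher, those of ZNF772, ZNF416, ZNF586 and ZNF587, and of the 33 without it 4 were. Only exact matches were counted, and ZNF304, with a near match, is among the 33. The median log2 fold changes with and without the string were 0.24 and 0.069. All 11 lie between ZNF17 and ZNF418, and 7 promoters of that span with a sequence lack the string. These 7 had the same median, 0.24, with 1 called (ZNF549), so that the medians with and without the string did not differ within the span. For the ETS core, 6 of 27 with it and 2 of 17 without it were called, with medians of 0.14 and −0.0058. For CCAAT, 8 of 28 with it and 0 of 16 without it were called, the latter with 1 passing as higher and 1 as lower before adjustment and 0 in DESeq2. Of all tested promoters 3.45% were called higher, and the 0 of 16 without CCAAT is near that share. Before adjustment the shares over all were 11.5% higher and 8.87% lower. Place in the gene order was not considered for CCAAT or the ETS core. These are counts over promoters of the same libraries and were not tested against each other.

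The 27 promoters outside the stretch hold no call by its definition, and ZNF417 was called among them when WT replicate 2 was left out. ZNF274, a protein with KRAB and SCAN domains that binds the ends of zinc finger genes and recruits SETDB1 there, held 334 and 562 fragments in KO and 334 and 315 in WT. Its log2 fold change was −0.12 (SE 0.085, edgeR adjusted p 0.421), and it was 0.011 with total count scaling. The other SCAN domain genes, ZNF444 and ZNF446, had log2 fold changes of −0.12 and −0.02. Counting ZNF274, 0 of these 3 were called by edgeR or DESeq2, with 0 at an unadjusted p under 0.05 in edgeR. For 3 promoters this is near the edgeR shares over all tested promoters, 3.45% higher and 0.995% lower (11.5% and 8.87% before adjustment). ZNF837, the most accessible promoter of the cluster in WT, stood at 52.3 and 51.1 CPM in KO and 58.3 and 58.7 in WT. Both KO libraries were lower, and the log2 fold change of −0.18 (SE 0.07) was not called (edgeR adjusted p 0.111). With offsets that remove the trend of fold change with abundance it was −0.25 and called (adjusted p 0.025).

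At the distal end ZNF497, ZNF584, ZNF324 and ZNF8 had log2 fold changes of −0.0058, 0.07, 0.14 and 0.08. At the proximal end ZNF582, ZNF583, ZNF471, ZNF264, ZNF805, ZNF460 and ZNF543 ranged from 0.027 to 0.13, and ZNF470 reached 0.21. ZNF256 had 0.21 and ZNF606 −0.02. None of these 14 was called by edgeR or DESeq2, and 0 had an unadjusted p under 0.05 in edgeR. For 14 promoters the absence of calls is near the edgeR shares over all tested promoters, 3.45% higher and 0.995% lower. Before adjustment the shares over all were 11.5% and 8.87%. Rows of divergent or overlapping transcripts (ZNF582-DT, ZNF460-AS1, ZNF606-AS1, ZNF8-ERVK3-1 and ZNF497-AS1) held nearly the same fragments as ZNF582, ZNF460, ZNF606, ZNF8 and ZNF497, and those counts belong to either.

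The low class had no call in edgeR or DESeq2. For 10 promoters this is near the edgeR shares over all tested promoters, 3.45% higher and 0.995% lower. Before adjustment 0 passed as higher and 1 as lower in edgeR (11.5% and 8.87% of all). ZNF544 had the lowest fold change of the cluster, with 3.21 and 3.34 CPM in KO and 4.78 and 4.32 in WT. Its log2 fold change was −0.47 (SE 0.23, edgeR adjusted p 0.235) on 35 to 57 fragments per library. ZNF418, ZNF135, ZNF835 and ZNF667 followed at −0.39, −0.32, −0.31 and −0.25, with an SE of 0.25 to 0.33, and ZNF132 stood at −0.24. ZNF154 went the other way, which gave 0.22 (log2 fold change, SE 0.27), and ZNF814 and ZNF329 were near 0 (0.029 and −0.015). The median of the 10 was −0.25, and it was −0.053 with offsets on abundance.

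The 2 WT libraries differed at these promoters, and the count of calls depended on which library was left out. WT replicate 1 lay below WT replicate 2 at 33 of the 48 promoters (68.8%), compared with 47.5% of all tested promoters. The median level of the 48 was 14.5 CPM in WT replicate 1 and 17.7 in WT replicate 2, against 19.9 and 18.8 in KO replicates 1 and 2. Without WT replicate 1, only ZNF304 and ZNF548 were called, 2 of 48 (4.17%), where 4.56% of all tested promoters were called higher. Without WT replicate 2, 7 were called, with ZNF550 and ZNF417 and without ZNF304, ZNF772 and ZNF549, where 0.504% of all promoters were. Without KO replicate 1, 4 were called (2.59% of all), and without KO replicate 2, 2 were called (0.133% of all). The direction of the 8 called promoters did not change in these fits.

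**Figure D3:**
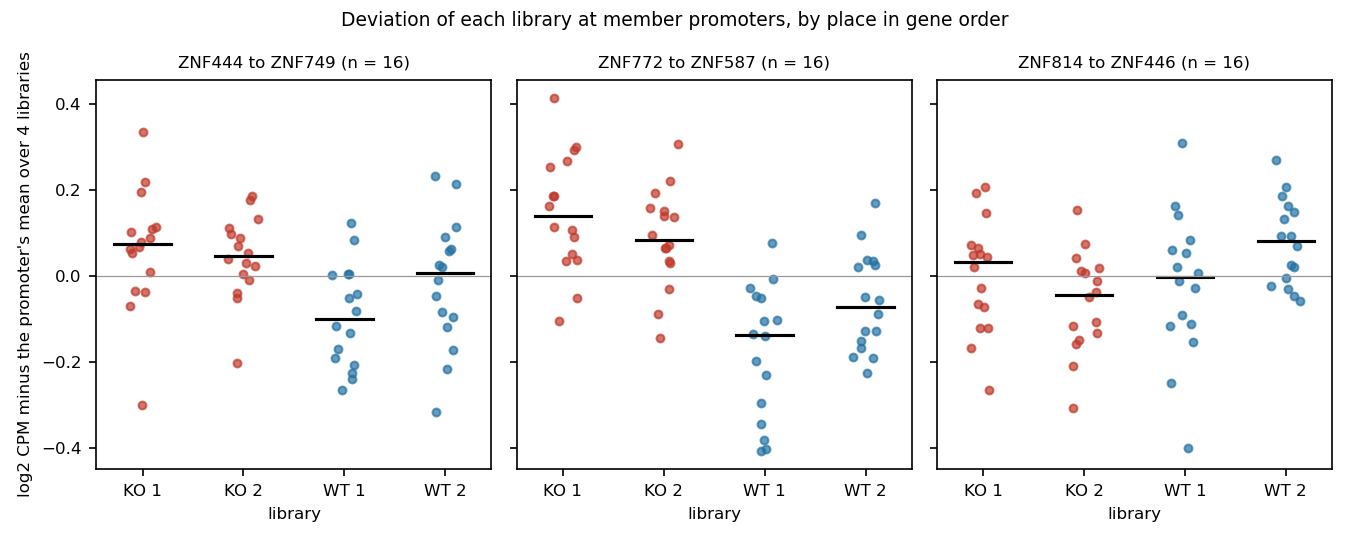
Deviation of each library's log2 CPM from the promoter's mean over 4 libraries (points, 1 per promoter, black bars are medians), for 3 runs of 16 genes in gene order. In the run from ZNF772 to ZNF587 the KO medians are 0.14 (replicate 1) and 0.08 (replicate 2) and the WT medians −0.14 and −0.07, while in the last run they lie between −0.04 and 0.08.

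The 49 other rows that lie among these genes held 1 call (2.04% called higher, near the 3.45% of all tested promoters). TRAPPC2B, counted with ZNF547, was the 1 called higher and 0 were called lower in edgeR (3 lower at an unadjusted p under 0.05, and 0 calls in DESeq2). Their median log2 fold change was −0.18, but they were mostly far less accessible, with a median of 4.14 CPM in WT against 16 CPM for the 48, and it was −0.054 with offsets on abundance. Apart from TRAPPC2B, 5 of these rows lie between ZNF304 and ZNF587. They were VN1R1 (0.30, SE 0.29), ZIK1 (−0.35, SE 0.24), ZSCAN4 (−0.0072, SE 0.26), FKBP1AP1 (−0.59, SE 0.25) and ZNF587B (−0.20, SE 0.21), log2 fold changes on 19 to 67 fragments per library.

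Other zinc finger promoters gave a background from the same fit, and 11 of the rows just described, such as ZNF587B, are counted among them too. Of 239 other ZNF promoters on chromosome 19, 7 were called higher (2.93%) and 6 lower, with a median log2 fold change of −0.0095. On other chromosomes 36 of 313 were called higher (11.5%) and 1 lower, with a median of 0.08. The share in the telomeric cluster, 16.7%, was above both in this fit, and the difference was not tested. For the other fits the cluster is set only beside all 552 other ZNF promoters pooled, of which 7.79% were called higher in this fit. Without WT replicate 1 the order of the shares was the opposite. The median log2 fold changes there were 0.076 in the cluster and 0.035 in all other ZNF promoters. The order was also the opposite with total count scaling (0% against 0.906%) and DESeq2 (0% against 0.362%), where the cluster held no call. Before adjustment 17 and 7 of the 48 passed as higher in those fits (8.83% and 4.23% of all tested promoters). In the other fits the share of the cluster was larger than the pooled share, as with loess offsets (8.33% against 2.36%). How it compares there with ZNF promoters on other chromosomes alone was not computed. Of the 16 genes of the KRAB co-repressor machinery and its HUSH partners, 3 were called higher in edgeR (18.8%, against 3.45% of all tested promoters). They were TASOR, PPHLN1 and MORC2, which is the edited gene itself. In edgeR 0 were called lower (0.995% of all) and 0 were lower at an unadjusted p under 0.05 (8.87% of all). DESeq2 called 0 in either direction. TRIM28, the partner of KRAB domains, lies close to ZNF446 at the telomere and stood at −0.026 (log2 fold change, SE 0.073). SETDB1 stood at −0.0063 (SE 0.076), and CBX1, which encodes a heterochromatin protein 1, at 0.24 (edgeR adjusted p 0.0508).

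**Figure D4:**
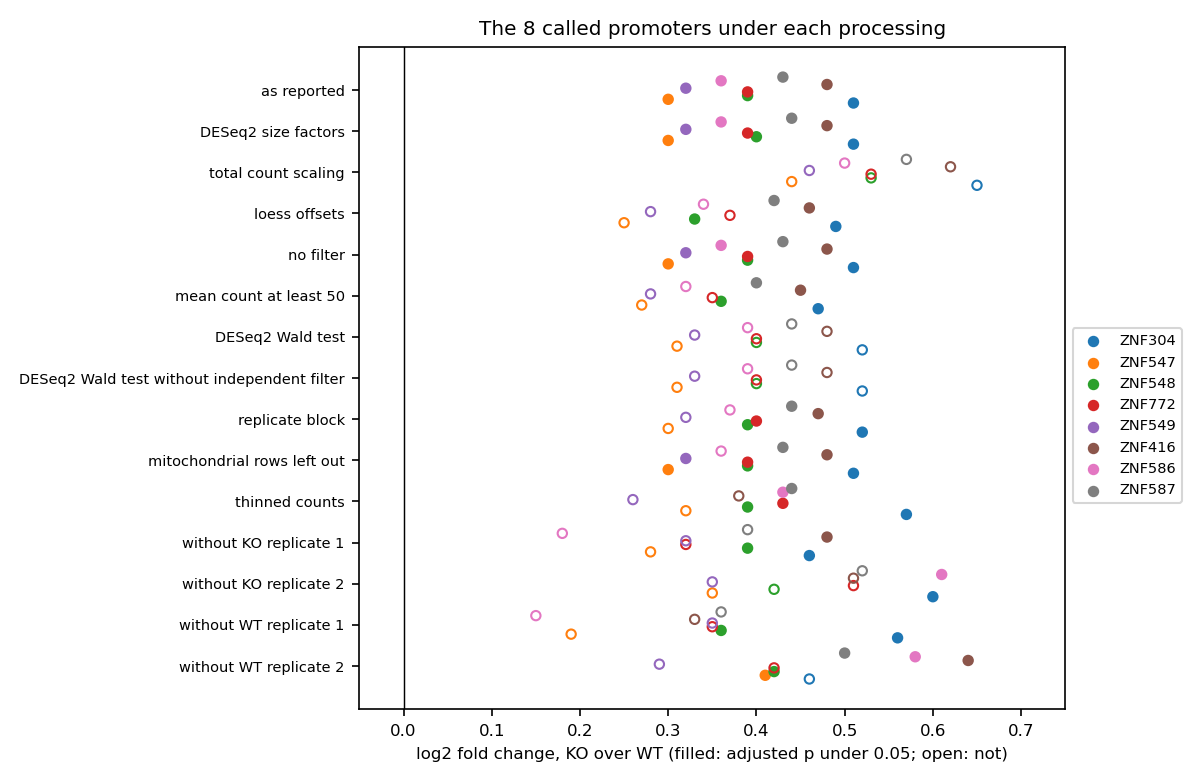
Log2 fold change of KO over WT (x axis) of the 8 called promoters under each processing (y axis), filled where the adjusted p was under 0.05. Every value is above 0, ZNF304 keeps its call in 7 of 10 alternatives, and no promoter is called with total count scaling or DESeq2.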

How the data were processed

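ATAC-seq profiled open chromatin in 2 WT and 2 MORC2 KO libraries of HEK293T cells. The deposited table holds raw fragment counts per promoter, not normalised, 1 row per NCBI Gene ID. The authors used Trim Galore for trimming and bowtie2 for alignment to CHM13, kept properly paired and well mapped reads, and removed duplicates with Picard. The processing notes also name featureCounts (Subread 2.0.6) without its role. The study describes promoters as 2 kb windows around the start, and counts fragments by midpoint in its own window analysis. Whether this table was counted in either way, and whether Tn5 offsets were applied, is not stated in the sources used here. Reads in near-identical copies are lost to the mapping filter or assigned uncertainly.

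Symbols and gene order came from RefSeq genes on GRCh38.p14, whose coordinates were used only for order. IDs of 12 rows had no symbol. The deposited WT peak list was not used, because no CHM13 annotation was at hand to tie peaks to genes. Per-sample columns of other origin numbered 0.

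Counts were filtered with filterByExpr (27647 rows kept), scaled by TMM and tested in edgeR 4.0.16 (quasi-likelihood, legacy fit, R 4.3.3), two-sided, KO against WT without covariates, adjusted by Benjamini-Hochberg over all rows. The scripts were tested on simulated data. An SE is the log2 fold change divided by the square root of F. Single-value permutation tests were not run on 2 against 2 libraries. P-values measure the spread between these libraries, and nothing in the labels gives molecular identifiers. Rows under 25% apart in every library and next to each other were taken as possibly sharing fragments. Totals per library set the precision: SEs were 0.07 for the deepest promoters and 0.33 for the shallowest.

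Alternatives were DESeq2 size factors, total count, loess offsets on abundance (span 0.3), no filter, a mean count of at least 50, DESeq2 1.42.0, a replicate block, each library left out, mitochondrial rows left out, counts thinned to 6119609 nuclear fragments, adjusted p under 0.1 or 0.01, and similar rows counted once. Named genes were those called, those with extreme fold change or level, those of functional lists and non-members called or sharing fragments; others, ZNF550, ZNF776 and the remaining genes among them, were named after their values were seen. The genes and lists were chosen with earlier results of these data known. The split by level, the stretch from ZNF304 to ZNF587 and the search for ACTACATTACC were chosen after seeing the data. Values of some marker genes are not reported here.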

Additional observations from a re-analysis of the deposited data

How the results depend on the processing

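The count of 8 promoters higher in KO was 8 with DESeq2 size factors and without a filter, and 7 without mitochondrial rows and with similar rows counted once. It fell to 5 with thinned counts, 4 with loess offsets, 4 among the 40 with a mean count of at least 50, 3 at an adjusted p under 0.01, 0 with total count scaling and 0 with DESeq2 with or without its independent filter. Leaving out each library gave 2 to 7. The count lower in KO, 0, was 1 (ZNF837) with loess offsets and at a mean count of at least 50. The median of the genes, 0.091, was above 0 throughout and lay from 0.076 to 0.16 with each library left out. It was 0.23 with total count scaling, which moved the median of all promoters to 0.12. Calls were kept in 7 of 10 other settings by ZNF304, ZNF548 and ZNF587, in 6 by ZNF416, in 5 by ZNF772 and in 3 by ZNF547, ZNF549 and ZNF586. With each of the 4 libraries left out in turn, ZNF304 and ZNF548 kept the call in 3 fits, ZNF416 and ZNF586 in 2, ZNF547 and ZNF587 in 1, and ZNF772 and ZNF549 in 0. The cause was not tested.

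With the replicate number as a block, 5 were called (ZNF304, ZNF548, ZNF772, ZNF416 and ZNF587), and ZNF547, ZNF549 and ZNF586 were not. For KO and WT libraries with the same replicate number, the deviations correlated at −0.000266. With 2 libraries per group this value is the same for both replicate numbers, and counting noise enters it. It cannot show whether libraries with the same number were handled together, which was not tested.

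Other rows of the stretch called higher, 1 as reported, were 0 with total count scaling, loess offsets, a mean count of at least 50, either DESeq2 setting, the block, thinned counts and an adjusted p under 0.01, and 0 to 1 with each library left out, where 0 to 2 were lower. Other ZNF promoters called higher, 43 as reported, were 5 with total count scaling, 13 with loess offsets, 27 at a mean count of at least 50, 2 in either DESeq2 setting, 24 with thinned counts, 65 at an adjusted p under 0.1, 16 under 0.01, and 4 to 38 with each library left out. Those called lower, 7 as reported, were 0 with total count scaling and in either DESeq2 setting, 2 with thinned counts, 17 under 0.1, 1 under 0.01, and 0 to 8 with each library left out. Of the co-repressor genes, 3 as reported, 0 were called with total count scaling and in either DESeq2 setting, 5 under 0.1, and 1 to 4 with each library left out.

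Some promoters near 0 changed sign. With total count scaling these were ZNF444 (0.016), ZNF606 (0.12), ZNF329 (0.13), ZNF274 (0.011), ZNF497 (0.13) and ZNF446 (0.12). With loess offsets they were ZNF805 (−0.00079) and ZNF329 (0.16), and at a mean count of at least 50 ZNF582 (−0.0043), ZNF805 (−0.0078) and ZNF134 (−0.0047). With thinned counts they were ZNF211 (−0.04), ZNF606 (0.092) and ZNF497 (0.029). ZNF497 was also 0.0025 in both DESeq2 settings and 0.00058 with the replicate block. With each library left out, ZNF582 ranged from −0.017 to 0.086, ZNF583 from −0.05 to 0.23, ZNF471 from −0.022 to 0.21, ZNF805 from −0.067 to 0.13 and ZNF543 from −0.025 to 0.16. ZNF419 ranged from −0.071 to 0.24, ZNF134 from −0.034 to 0.097, ZNF814 from −0.18 to 0.26, ZNF417 from −0.039 to 0.51 and ZNF606 from −0.13 to 0.15. ZNF329 ranged from −0.14 to 0.11, ZNF497 from −0.029 to 0.055 and ZNF446 from −0.038 to 0.019. The cause was not tested. Leaving out a library leaves 1 library in a group, which is then assumed to vary like the other group.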
